A study of Rattus norvegicus with 28 samples.

Results

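The transcript changes that mismatched and matched heart grafts had in common, in cell preparations enriched for the lining of their vessels, were read from 18 graft samples and 6 samples of normal hearts, 24 of the 28 samples in the series. Allografts were hearts of DA (Dark Agouti) rats placed in Lewis recipients, a pair that differs in transplantation antigens, and were taken on days 2, 3 and 4 (9 samples, 3 a day). Their counterpart was endothelium of normal DA hearts that were never grafted (3 samples). Isografts were Lewis hearts placed in Lewis recipients, taken on the same days (9 samples, 3 a day), and their counterpart was endothelium of normal Lewis hearts (3 samples). All rats were male. Donor hearts were joined to vessels of the recipient's neck with a cuff technique. Cells of the minced heart were freed of leukocytes with an antibody to CD45 and then collected with an antibody to CD31, a surface protein of endothelium that platelets and part of the leukocytes also carry. The 4 remaining samples of the series were leukocytes from allografts, 1 from day 2, 2 from day 3 and 1 from day 4, and served here only to show which genes leukocytes carry. The labels name the arrays as biological replicates but do not say whether each came from 1 animal, so the p-values measure the spread between these samples.

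Any grafted heart is cut from its blood supply, kept outside the body for a time and then reperfused, and surgery wounds it further. Activated endothelium puts P-selectin, E-selectin and VCAM-1 on its surface, on which blood leukocytes roll and stop, while chemokines draw the cells into the tissue. Monocytes that enter injured heart muscle become macrophages, which clear dead cells and pass antigen and matrix signals to their surroundings. In resting endothelium, bone morphogenetic proteins (BMP) in the blood act through receptors and SMAD proteins on the Id genes, and this axis belongs to the quiescent state.

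Promoters of 3 genes that rose in both graft types are printed because each holds one of the motifs whose shares close the results, with that motif in capitals. Other motifs of the same search are not marked. Among these are an AP-1 element (TGANTCA) in Gpnmb and in Mt2A, and a SMAD element (GGCGCC) in Mt2A. The promoters run from 250 bases before to 50 bases after the start of the gene, 5′ to 3′ on the gene's strand, and come from RefSeq (build GRCr8). The first belongs to Gpnmb, a membrane glycoprotein of phagocytes, at chr4:79340878-79341177 on the plus strand, and the capitals mark an M box (TCATGTG, here on the other strand), the element read by MITF family factors.
Gpnmb: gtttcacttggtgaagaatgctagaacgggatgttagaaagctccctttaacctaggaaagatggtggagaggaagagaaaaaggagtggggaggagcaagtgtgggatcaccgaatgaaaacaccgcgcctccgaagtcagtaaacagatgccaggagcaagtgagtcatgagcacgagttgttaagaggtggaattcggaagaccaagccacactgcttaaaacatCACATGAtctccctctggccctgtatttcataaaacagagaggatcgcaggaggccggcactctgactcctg
The next belongs to Lyz2, lysozyme of macrophages, at chr7:54797962-54798261 on the minus strand, with an AGGAAGT element of PU.1 and other ETS factors, again on the other strand.
Lyz2: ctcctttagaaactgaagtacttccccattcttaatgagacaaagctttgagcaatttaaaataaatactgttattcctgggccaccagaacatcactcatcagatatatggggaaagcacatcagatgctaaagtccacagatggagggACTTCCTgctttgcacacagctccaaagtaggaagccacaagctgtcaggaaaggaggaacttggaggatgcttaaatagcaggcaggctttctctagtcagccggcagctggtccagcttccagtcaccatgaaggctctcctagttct
The last belongs to Mt2A, a metal-binding metallothionein, at chr19:10838659-10838958 on the minus strand, with 2 metal response elements (TGCGCNC), 1 on each strand.
Mt2A: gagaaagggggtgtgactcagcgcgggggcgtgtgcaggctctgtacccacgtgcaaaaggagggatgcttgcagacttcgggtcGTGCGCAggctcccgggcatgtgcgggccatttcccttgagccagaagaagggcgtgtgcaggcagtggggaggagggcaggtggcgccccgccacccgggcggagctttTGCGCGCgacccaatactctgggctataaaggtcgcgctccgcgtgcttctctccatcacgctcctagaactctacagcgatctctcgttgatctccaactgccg

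Signals are log2 values per probe set on Affymetrix arrays, 1 probe set for each of 14217 genes. The 24 endothelial arrays had medians of 6.51 to 6.59, and arrays of a group correlated across genes with r between 0.965 and 0.995. Array signals carry no counting depth, and the number of arrays limits the precision. The 20 measured endothelial markers, among them Pecam1 (CD31), Kdr and Tek, had a mean of 11.86 to 12.19 log2 in allografts against 12.16 to 12.21 in normal DA hearts, and of 12.02 to 12.19 in isografts against 12.04 to 12.26 in normal Lewis hearts, and all 20 were higher in the graft endothelium than in the graft leukocytes. The means of macrophage and pan-leukocyte markers lay above the normal hearts of the same strain in every graft, and 15 of 15 macrophage, 12 of 15 pan-leukocyte and 10 of 14 T cell markers were called higher in the grafts (9.43% of all genes were). Of 13 fibroblast markers 4 were called higher, with 3 allografts and 3 isografts inside the range of their normal hearts, and of 21 cardiomyocyte markers 11 were called lower (6.89% of all genes). In such bulk samples, fewer cells of a type and less RNA per cell cannot be told apart, and neither can more cells and more RNA per cell.

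**Figure D1:**
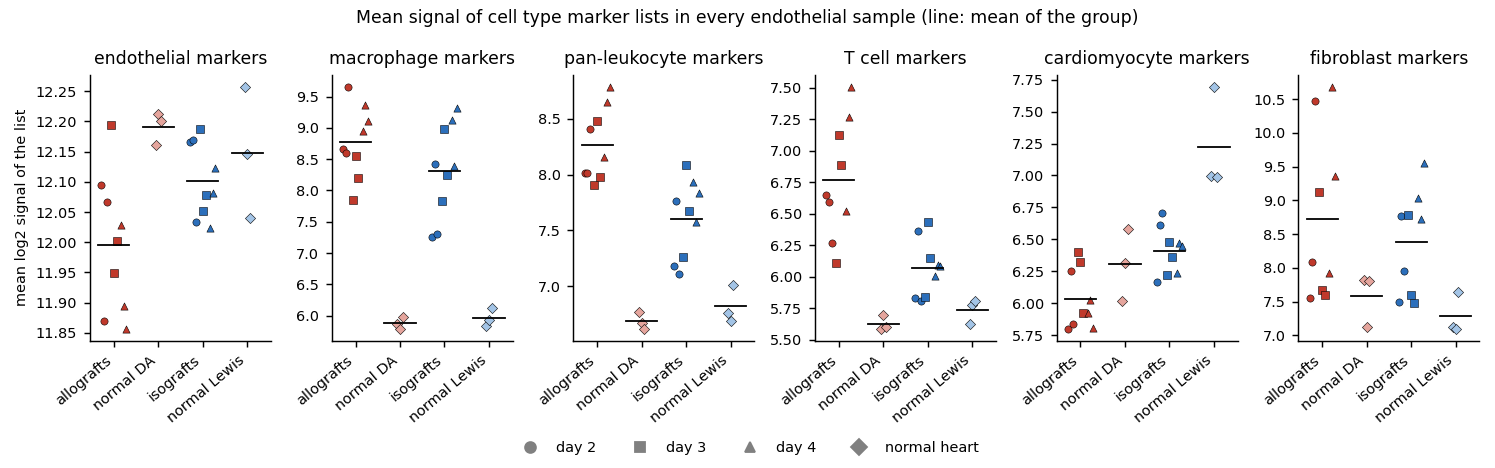
Mean log2 signal of 6 cell type marker lists (vertical axes, each with its own range) in allografts, normal DA hearts, isografts and normal Lewis hearts, 1 symbol per sample with the day as its shape and a line at the group mean. Macrophage means lie between 7.85 and 9.66 in allografts and between 7.25 and 9.31 in isografts, above the 5.79 to 6.12 of the 6 normal hearts, while cardiomyocyte means are highest in normal Lewis hearts.

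In both graft types, genes with which vessels hold leukocytes, macrophage genes and some genes of matrix, iron handling and hypoxia rose. Some BMP target genes and some genes of sprouting endothelium fell, while the vessel ligands Angpt2 and Pgf rose. For each gene the change of allografts (mean of days 2, 3 and 4 minus normal DA) and that of isografts (the same minus normal Lewis) were fitted, together with the average of both, which sets all 18 grafts against the 6 normal hearts within strain. The average passed the test (limma, adjusted p under 0.05) for 2320 of 14217 genes (16.3%), of which 1341 rose (9.43%) and 979 fell (6.89%). By themselves, allografts changed in 1338 genes (9.41%; 5.57% rose and 3.84% fell) and isografts in 647 (4.55%; 3.29% rose and 1.26% fell). A gene counts as shared where the average and both graft types passed in 1 direction. This held for 484 genes (3.4% of all tested), of which 370 rose (2.6%) and 114 fell (0.802%). The shared genes were 36.2% of those called in allografts and 74.8% of those called in isografts, and no gene (0) was called in opposite directions. Both responses come from separate samples, and over all 14217 genes, whose values depend on one another, they correlated with r = 0.81.

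Risers moved further than fallers. Of the 370 genes that rose, 227 did so at least 2-fold on average, 82 at least 4-fold and 23 at least 8-fold, and their median was 1.20 log2. Of the 114 that fell, 31 did so at least 2-fold and 1 at least 4-fold, with a median of -0.75 log2. The median over all genes was -0.00 log2. In 281 of the risers (against 2.82% of all genes) every graft of either type lay above its own strain's normal hearts, and in 79 of the fallers (against 1.1%) every graft lay below. These are the contrasts by which the genes were chosen, so both shares describe the genes and test nothing. Next to the threshold, Rab32 (largest of its 3 adjusted p = 0.0496, average 0.78 log2) and Scrn1 (0.0498, a faller) lay just inside, and Pdgfrl (0.0501, 0.97 log2) and Ramp1 (0.0504, 0.81 log2) just outside. When each of the 24 arrays was left out in turn, all 484 genes stayed called in the average, and 180 stayed shared every time. Among genes named below, Il1b, Ubd, Bcl2a1, Slc16a3, Mmp14, Timp1, Mb, Myh6 and Wt1 left the shared set in 1 or 2 of these 24 fits, Ptgs2 in 2 and Tnfaip3 in 4, each without a normal heart. The number of shared genes was lowest without a normal Lewis heart (290, 286 and 311 without replicates 1, 2 and 3) and highest, at 622, without replicate 1 of the allografts of day 4.

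**Figure D2:**
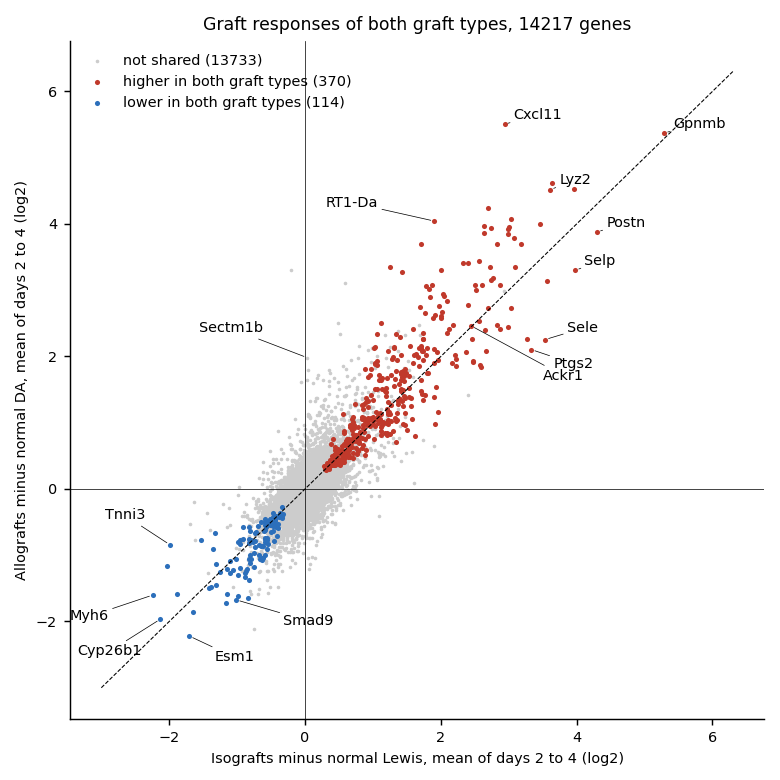
Change in allografts (vertical axis, mean of days 2 to 4 minus normal DA, log2) against change in isografts (horizontal axis, the same minus normal Lewis, log2) for 14217 genes, with the 370 genes that rose in both graft types in red, the 114 that fell in both in blue and a dashed line of equal change. Gpnmb and Ackr1 lie near that line, Cxcl11 and RT1-Da above it and Sele below it, and Sectm1b, which is not shared, has 1.98 in allografts and 0.03 in isografts.

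Adhesion receptors of activated venules rose in both graft types. Selp, P-selectin, which lets leukocytes roll, ran from 9.98 to 11.31 log2 in allografts (median 10.80), against 6.80, 7.76 and 7.85 in normal DA hearts, and from 10.16 to 12.11 in isografts (median 11.09), against 6.58, 7.14 and 7.64 in normal Lewis hearts. No graft came within 2 log2 of a normal heart, and the average response was 3.64 ± 0.25 log2 (SE here and below; adjusted p = 4.23e-09), or 12.5-fold, with 0.35 on another probe set. Sele, E-selectin, which slows rolling cells, ran from 10.60 to 12.12 in allografts (median 11.27), against 8.52, 9.06 and 9.46 in normal DA hearts, and from 10.71 to 12.24 in isografts (median 11.51), against 7.55, 7.69 and 8.37 in normal Lewis hearts. Its average response was 2.90 ± 0.22 log2 (adjusted p = 1.04e-08), and all 18 grafts lay above all 6 normal hearts. Ackr1, the venular receptor that carries chemokines across the wall, ran from 10.17 to 11.38 in allografts (median 10.61), against 7.90, 8.42 and 8.45 in normal DA hearts, and from 8.45 to 10.01 in isografts (median 9.68), against 6.76, 7.06 and 7.18 in normal Lewis hearts. The grafts of each strain lay above their own normal hearts, and the changes of both graft types were nearly equal, at 2.46 log2 in allografts and 2.45 in isografts (95% interval of the difference -0.70 to 0.73).

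Of 15 leukocyte adhesion genes measured, 5 were shared risers and 0 shared fallers, the others being Vcam1 (1.54 ± 0.18 log2, adjusted p = 4.83e-06), the ligand of leukocyte integrins, and Alcam (0.70 log2). The list's median was 0.20 log2, against -0.00 over all genes. Over all genes 2.6% were shared risers and 0.802% shared fallers, the shares beside which the counts of this and later lists stand. Icam1, which also binds leukocyte integrins, was not shared, with 0.55 log2 in allografts (adjusted p = 0.557) and 1.58 in isografts (adjusted p = 0.0464). Icam2, the form of resting endothelium, had -0.47 in allografts and -0.31 in isografts and missed the threshold in isografts alone (adjusted p = 0.0512).

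Permeability and growth factor genes went both ways. Plvap, which forms the diaphragms of leaky capillaries and venules, ran from 9.95 to 11.06 in allografts (median 10.63), against 8.46, 8.51 and 9.29 in normal DA hearts, and from 10.16 to 11.03 in isografts (median 10.55), against 7.68, 8.17 and 8.29 in normal Lewis hearts. All 18 grafts lay above all 6 normal hearts, with an average of 2.20 ± 0.15 log2 (4.59-fold, adjusted p = 4.23e-09). Angpt2, the ligand that loosens contacts held by the Tie2 receptor, rose by 1.32 ± 0.10 log2 (adjusted p = 2.22e-08), and Pgf, a VEGF family ligand, by 1.62 ± 0.23 log2. Pgf left the shared set without normal Lewis replicate 1, 2 or 3 or isograft day 4 replicate 3.

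Esm1, endocan, which sprouting endothelium secretes, ran from 7.40 to 9.73 in allografts (median 8.25), against 10.35, 10.62 and 10.72 in normal DA hearts, and from 7.67 to 9.80 in isografts (median 9.03), against 10.31, 10.73 and 10.96 in normal Lewis hearts. All grafts lay below all normal hearts, and the average was -1.96 ± 0.26 log2 (adjusted p = 1.64e-05). Kdr, the main VEGF receptor, fell by 0.66 ± 0.10 log2 on average (adjusted p = 9.92e-05), Nrp1, its co-receptor, by 0.74 ± 0.11 and Dll4, the Notch ligand of tip cells, by 0.70 ± 0.11. Kdr and Nrp1 each left the shared set in 4 of 24 fits (without normal Lewis replicate 1, 2 or 3 or isograft day 2 replicate 2), and Dll4 without normal DA replicate 2 or 3, and Esm1 without normal Lewis replicate 1, always with the average still called.

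Of 16 permeability and Tie genes 2 were shared risers and 2 shared fallers (median -0.09 log2), and without normal Lewis replicate 1 no faller (0) stayed shared. Of 23 angiogenesis and Notch genes 1 was a shared riser and 2 shared fallers (median -0.34 log2), with 7 called lower in the average (6.89% over all genes). The riser was lost in the fits that lost Pgf, and 1 faller remained in those that lost Nrp1 or Dll4. The shared counts of both lists are too small to be read against all genes (2.6% shared risers, 0.802% shared fallers). Tek (-0.20 ± 0.10 log2) and Vegfa (-0.09 ± 0.19 log2) did not pass in the average (adjusted p = 0.21 for Tek and 0.834 for Vegfa). Of the 20 endothelial identity markers, 15 were not called in the average, 2 were called higher and 3 lower, and Kdr alone was shared.

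Smad9, Smad7, Id1 and Id3, a transducer, an inhibitor and targets of BMP signalling, fell in both graft types. Smad9, which carries BMP signals to the nucleus, ran from 4.82 to 5.56 in allografts (median 5.26), against 6.53, 6.76 and 7.40 in normal DA hearts, and from 5.04 to 5.52 in isografts (median 5.31), against 5.87, 6.44 and 6.57 in normal Lewis hearts. All 18 grafts lay below all 6 normal hearts, with an average of -1.34 ± 0.12 log2 (adjusted p = 1.05e-07). A dim second probe set of Smad9 had -0.06 log2. Id1, a helix-loop-helix target of BMP, ran from 12.12 to 13.20 in allografts (median 12.52), against 13.45, 13.73 and 13.86 in normal DA hearts, and from 12.32 to 13.03 in isografts (median 12.59), against 13.46, 13.78 and 13.92 in normal Lewis hearts. Its changes of -1.05 log2 in allografts and -1.02 in isografts were alike (95% interval of the difference -0.61 to 0.55). Smad7, the inhibitor induced by the same signals, ran from 8.31 to 9.43 in allografts (median 8.88), against 10.03, 10.10 and 10.18 in normal DA hearts, and from 8.29 to 9.48 in isografts (median 8.89), against 9.42, 10.13 and 10.19 in normal Lewis hearts. The lowest normal Lewis heart overlapped the isografts, and Smad7 averaged -1.18 ± 0.15 log2 (adjusted p = 1.58e-05), with -1.31 and -0.31 on its other probe sets. Smad7 and Id1 were chosen after their values were seen.

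Of 27 BMP and TGF-beta genes, 4 were shared fallers, the fourth being Id3 (-0.62 ± 0.08 log2), and 2 shared risers, with a median of -0.24 log2 against -0.00 over all genes. In the average 13 of the 27 were called lower (6.89% over all genes) and 3 higher. The inhibitor Smad6 averaged -0.84 log2 and missed in isografts (adjusted p = 0.052). The ligand Bmp6 had -0.78 log2 in allografts and -0.83 in isografts and missed in both (adjusted p = 0.0503 in allografts and 0.0581 in isografts). The risers were secreted ligands, Inhba, the activin A subunit, with 1.59 ± 0.24 log2 (0.20 on another probe set), and Bmp4 with 1.42 ± 0.27 log2. Bmp4 left the shared set in 7 of 24 fits with an array left out and Inhba without normal DA replicate 2 or normal Lewis replicate 1, so the list had 0 shared risers without either of those arrays. The number of shared fallers was 3 without normal Lewis replicate 2 and 7 without allograft day 4 replicate 1, its lowest and highest.

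**Figure D3:**
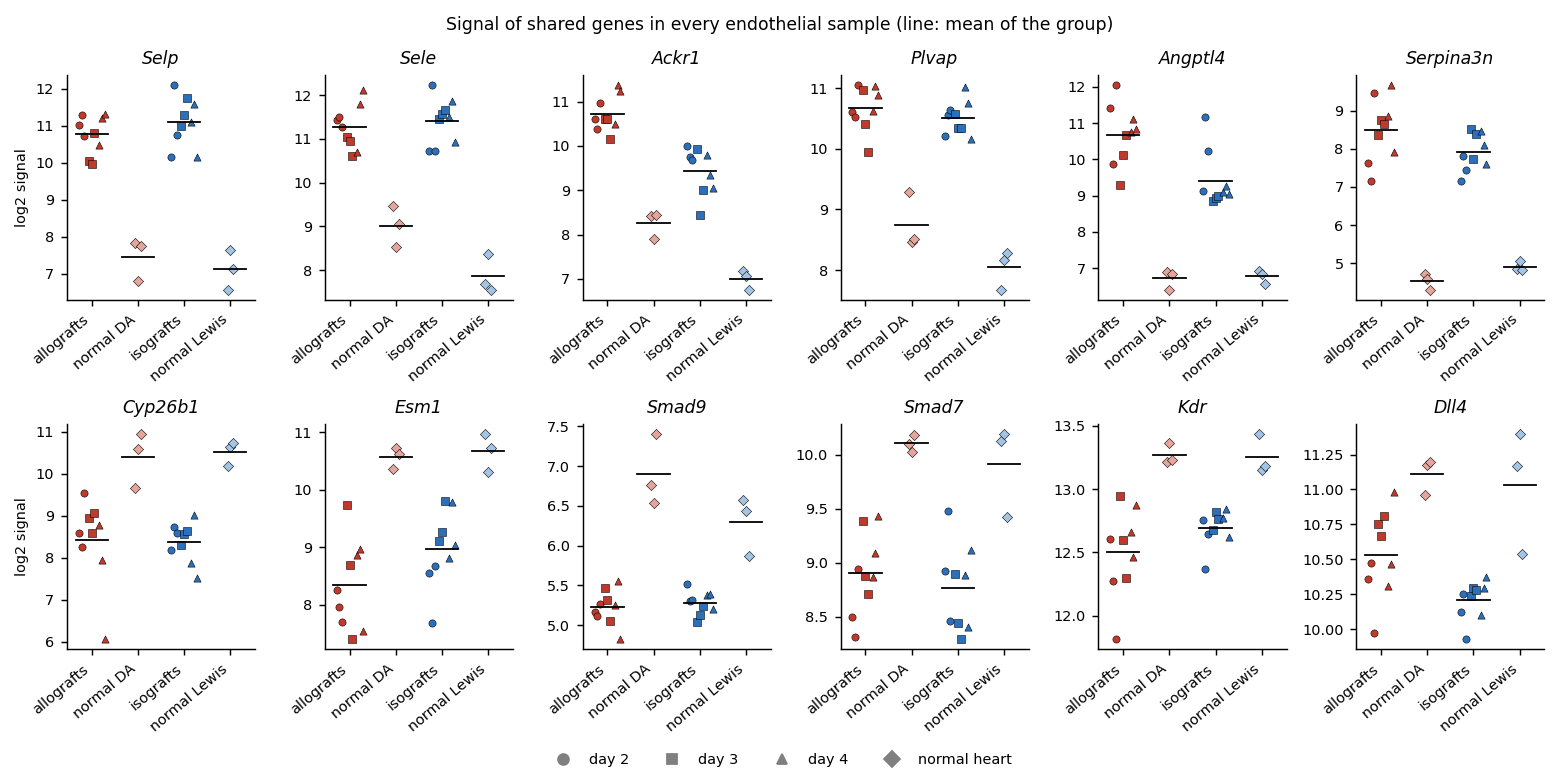
Log2 signal (vertical axes, each with its own range) of 6 genes that rose and 6 that fell in both graft types, in allografts, normal DA hearts, isografts and normal Lewis hearts, 1 symbol per sample with the day as its shape and a line at the group mean. Selp, Sele, Plvap, Angptl4 and Serpina3n lie above every normal heart in all 18 grafts, Cyp26b1, Esm1, Smad9 and Kdr lie below every normal heart, and Ackr1 separates within each strain.

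Single genes of lipid uptake, retinoid breakdown and vessel tone changed in both graft types. Angptl4, an inhibitor of lipoprotein lipase, ran from 9.29 to 12.06 in allografts (median 10.75), against 6.41, 6.84 and 6.90 in normal DA hearts, and from 8.84 to 11.18 in isografts (median 9.11), against 6.57, 6.85 and 6.91 in normal Lewis hearts. No graft overlapped a normal heart, and the average was 3.30 ± 0.26 log2 (9.85-fold, adjusted p = 1.83e-08). Of 15 genes of lipid uptake 2 were shared risers (2.6% over all genes), and the median was -0.19 log2. The other riser was Scarb1, a lipoprotein receptor, at 1.03 ± 0.10 log2. Cd36, the fatty acid translocase, had -0.30 ± 0.25 log2 and Fabp4, its intracellular carrier, -0.30 ± 0.19, and both missed the threshold.

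Cyp26b1, which breaks down retinoic acid, was the faller with the greatest change. It ran from 6.06 to 9.54 in allografts (median 8.60), against 9.65, 10.58 and 10.93 in normal DA hearts, and from 7.53 to 9.02 in isografts (median 8.57), against 10.19, 10.63 and 10.72 in normal Lewis hearts. All grafts lay below all normal hearts, with an average of -2.05 ± 0.29 log2 (adjusted p = 3.87e-05) and -0.89 on another probe set. Of 19 vasoregulatory genes 2 were shared risers and 1 a shared faller (2.6% and 0.802% over all genes). These were the angiotensin II receptor Agtr1a (1.40 ± 0.21 log2, lost from the shared set without normal Lewis replicate 1, 2 or 3), the prostaglandin synthase Ptgs1 (0.89 ± 0.11, 0.13 on another probe set, lost without normal DA replicate 2) and Npr3, which clears natriuretic peptides (-0.84 ± 0.10, lost without normal Lewis replicate 2). Of 20 coagulation and fibrinolysis genes 1 was shared (3.4% over all genes), and 12 of the 20 were called higher in the average (9.43% over all genes). The shared gene was the urokinase Plau (1.47 ± 0.27 log2, lost without normal DA or normal Lewis replicate 2 or 3).

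Further genes with a higher signal in the allograft endothelial preparations than in graft leukocytes are named here after their values were seen. Which cells of these preparations carried them was not tested. Serpina3n, a protease inhibitor, ran from 7.15 to 9.68 in allografts (median 8.64), against 4.31, 4.58 and 4.71 in normal DA hearts, and from 7.16 to 8.51 in isografts (median 7.81), against 4.83, 4.84 and 5.05 in normal Lewis hearts. All grafts lay more than 2 log2 above all normal hearts, with an average of 3.48 ± 0.25 log2 (11.2-fold, adjusted p = 7.22e-09). Adamts4, a protease that cuts versican and aggrecan, rose by 3.35 ± 0.34 log2. Fgf23, a hormone of phosphate balance best known from bone, had 7.36 to 9.03 in allografts (median 7.89), against 4.73, 4.94 and 4.99 in normal DA hearts, and 6.98 to 8.71 in isografts (median 7.78), against 4.79, 4.83 and 5.60 in normal Lewis hearts. Its average was 2.95 ± 0.22 log2 (adjusted p = 9.5e-09), again with no overlap.

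Dmbt1, a scavenger receptor family member of epithelia, rose by 2.65 ± 0.15 log2, the prostaglandin transporter Slco2a1 by 2.38 ± 0.16, and Col18a1, which holds endostatin, by 2.00 ± 0.16. Another probe set of Slco2a1 had 1.23 log2. The antimicrobial lectins Reg3g (2.33 ± 0.37) and Reg3b (2.04 ± 0.30) rose too. Reg3g left the shared set without normal DA replicate 2 or normal Lewis replicate 1, and Reg3b without normal DA replicate 2. Among fallers of this kind were Sbspon (-1.24 ± 0.13), the bradykinin-cutting peptidase Xpnpep2 (-1.22 ± 0.19), the dipeptidyl peptidase Dpp4 (-1.13 ± 0.17) and the matrix protein Ltbp4 (-1.11 ± 0.14). Each of these left the shared set in 1 to 3 of 24 fits. Lmo7, a protein of cell junctions, fell by 1.06 ± 0.07 log2 with grafts and normal hearts well apart.

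Several chemokines rose in both graft types. Cxcl11, which calls T cells through CXCR3, ran from 7.67 to 13.94 in allografts (median 12.36), against 6.17, 6.23 and 6.59 in normal DA hearts, and from 7.77 to 9.83 in isografts (median 8.94), against 5.47, 6.10 and 6.19 in normal Lewis hearts. All grafts lay above all normal hearts. Its change was 5.50 log2 in allografts and 2.94 in isografts, and the interval of the difference was wide (0.89 to 4.24, not called over all genes). Ccl7, which draws monocytes, rose by 2.88 ± 0.32 log2 (adjusted p = 1.88e-06) and Ccl6, a rodent chemokine of myeloid cells, by 3.72 ± 0.31. Of 23 chemokines 7 were shared risers and 0 shared fallers, the others being Cxcl2, Ccl2, Ccl3 and Ccl4 (1.84 to 2.72 log2), with a median of 0.73 log2. The count was 7 in each of the 24 fits with an array left out. Over all genes 2.6% were shared risers. By the rule given below, 4 of the 7 were higher in leukocytes and 0 in endothelium. The CXCR3 ligands Cxcl9 and Cxcl10 passed in allografts (2.15 and 2.33 log2) and not in isografts (1.24 and 1.69 log2, adjusted p = 0.24 and 0.104).

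Of 19 NF-kB inflammatory genes 4 were shared risers (2.6% over all genes). Il1b, the fever cytokine, averaged 3.47 ± 0.41 log2 (adjusted p = 4.06e-06), Ptgs2, the inducible prostaglandin synthase, 2.72 ± 0.37, Tnfaip3, which ends NF-kB signals, 1.25 ± 0.20, and the receptor Il1r1 0.46. The count was 1 without normal DA replicate 2 or normal Lewis replicate 1. By the rule given below, Il1b was higher in leukocytes, and 1 of the 4 was higher in endothelium. Il6 averaged 1.29 ± 0.37 log2 and was called in neither graft type alone. Of 19 interferon-induced genes 1 was a shared riser, Ubd, a ubiquitin-like modifier, and the median was -0.14 log2. That count is near the 2.6% of shared risers over all genes. Ubd averaged 2.23 ± 0.29 log2 with allografts of 9.61 to 14.43 (median 13.55), against 9.88, 10.76 and 11.02 in normal DA hearts, so that the lowest allograft overlapped the normal hearts. Isografts had 9.15 to 9.85 (median 9.65), against 7.47, 7.63 and 7.98 in normal Lewis hearts. Ubd left the shared set without normal Lewis replicate 1 or 3.

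Macrophage genes rose in both graft types. Gpnmb, whose promoter is printed above, ran from 9.31 to 12.93 in allografts (median 11.21), against 5.38, 5.80 and 6.03 in normal DA hearts, and from 10.20 to 12.40 in isografts (median 11.15), against 5.54, 6.09 and 6.15 in normal Lewis hearts. The gap between grafts and normal hearts exceeded 3 log2, and the average of 5.33 ± 0.28 log2 (40.3-fold, adjusted p = 9.8e-11) was the highest of all shared genes. Lyz2 ran from 12.30 to 13.69 in allografts (median 13.10), against 8.43, 8.56 and 8.71 in normal DA hearts, and from 11.67 to 13.76 in isografts (median 12.84), against 8.94, 8.97 and 9.63 in normal Lewis hearts. All grafts lay above all normal hearts, with an average of 4.07 ± 0.19 log2 (adjusted p = 3.62e-11). Mpeg1, a pore-forming protein of macrophages, rose by 4.25 ± 0.20 log2 (1.57 on another probe set), the lectin Clec4a3 by 4.12 ± 0.23, the Fc receptor chain Fcer1g by 3.56 ± 0.22, the mannose receptor Mrc1 by 3.44 ± 0.30 and the inhibitory IgG receptor Fcgr2b by 3.43 ± 0.33.

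Of 15 macrophage markers 13 were shared risers (median 2.55 log2) and the count stayed at 11 or more in the 24 fits with an array left out. The neutrophil list had 0 shared genes of 7, the B cell list 0 of 5 and the cytotoxic lymphocyte list 0 of 9, lists too short to be read against the 3.4% shared over all genes. Of the neutrophil markers 3 of 7 were called higher in the average (9.43% over all genes), with a median of 0.90 log2. Their mean was 5.28 to 7.88 in allografts, against 4.93 to 5.04 in normal DA hearts, and 5.21 to 6.53 in isografts, against 5.05 to 5.11 in normal Lewis hearts. Of 14 T cell markers 1 was shared, the kinase Lck (1.13 ± 0.11 log2), and 10 were called higher in the average, again against 9.43% over all genes. Of 15 pan-leukocyte markers 6 were shared risers, with Cd53 at 3.25 ± 0.27 and Ptprc (CD45, against which cells had been removed) at 2.47 ± 0.26 log2 (1.10 on another probe set), and 3 remained so without normal Lewis replicate 1 or 2. The actin regulator Coro1a, with 3.35 log2 in allografts and 1.26 in isografts, left the shared set in 14 of 24 such fits.

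Lysosome and antigen presentation genes followed. Of 17 lysosome genes 6 were shared risers, led by the proteases Lgmn (2.98 ± 0.18 log2, and -0.03 on a dim second probe set), Ctss (2.84 ± 0.19) and Ctsz (1.56 ± 0.14). Of 13 complement genes 7 were shared risers (median 1.85 log2), among them C1qa, a recognition subunit of C1 (2.48 ± 0.19), the protease Cfd, factor D (2.34 ± 0.25), the anaphylatoxin receptor C5ar1 (2.22 ± 0.18) and the C1 inhibitor Serping1 (2.00 ± 0.19). By the rule given below, 5 of the 6 lysosome and 5 of the 7 complement risers were higher in leukocytes. In endothelium 0 of the former and 1 of the latter were higher. Of 8 MHC class II genes 5 were shared risers (median 1.83 log2), and 2 without normal Lewis replicate 1 or 2. RT1-Da, a class II alpha chain, changed by 4.04 log2 in allografts and 1.90 in isografts, and Cd74, the invariant chain, by 3.28 in allografts and 1.43 in isografts. Cd74 left the shared set in 16 of 24 fits with an array left out, while its average stayed called. Each of these changes was measured against normal hearts of the donor's strain, since RT1 alleles differ between DA and Lewis. Allografts can also hold leukocytes of the Lewis recipient, so their class II signal may mix alleles of both strains. All 5 shared class II risers were leukocyte-high by the rule given below, and the effect of such mixing was not tested. RT1-Bb, another of the 5, averaged 2.71 log2, with -0.12 on another probe set.

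Matrix genes rose with wide scatter between grafts. Postn, periostin, a product of activated fibroblasts, ran from 7.56 to 12.48 in allografts (median 8.62), against 5.10, 5.49 and 6.37 in normal DA hearts, and from 6.64 to 10.97 in isografts (median 9.54), against 4.18, 4.64 and 5.07 in normal Lewis hearts. All grafts lay above all normal hearts, yet the SE was large, with an average of 4.09 ± 0.59 log2 (adjusted p = 5.24e-05). Tnc, tenascin C of wound matrix, averaged 3.46 ± 0.42 log2 and Spp1, osteopontin, 3.22 ± 0.36. Of 31 matrix genes 9 were shared risers and 20 were called higher in the average (9.43% over all genes), with a median of 0.93 log2. The 9 became 5 without normal Lewis replicate 1 or 3. The collagens Col1a2 (2.52 ± 0.53) and Col3a1 (2.11 ± 0.45) left the shared set in 20 of 24 such fits.

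Fibroblast markers, among which Postn, Col1a2 and Col3a1 count, had a mean of 7.55 to 10.69 log2 in allografts, against 7.12 to 7.81 in normal DA hearts, and of 7.48 to 9.56 in isografts, against 7.10 to 7.64 in normal Lewis hearts. They were highest in allograft day 2 replicate 3 and allograft day 4 replicate 2. Without both of these arrays, a comparison added after the data were seen, 8 matrix genes and 482 genes in all were shared. The part of fibroblasts in the matrix change was not tested. Of 24 matrix proteases and inhibitors 5 were shared risers, with Timp1 at 2.22 ± 0.30 log2 and the membrane protease Mmp14 at 1.44 ± 0.20 (0.39 on another probe set), and 3 remained without normal DA replicate 2.

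Stress and metabolism showed small groups of shared genes and several lists with none. Mt2A, whose promoter is printed above, ran from 10.86 to 13.32 in allografts (median 12.18), against 8.59, 9.30 and 9.43 in normal DA hearts, and from 10.85 to 11.65 in isografts (median 11.33), against 8.26, 8.75 and 9.32 in normal Lewis hearts. All grafts lay above all normal hearts, with an average of 2.79 ± 0.25 log2 (6.92-fold, adjusted p = 1.3e-07). Of 20 genes of oxidative stress and iron 5 were shared risers, with the copper ferroxidase Cp at 1.90 ± 0.15 log2 (2.02 in allografts and 1.78 in isografts), the heme oxygenase Hmox1 at 1.90 ± 0.23 and the superoxide dismutase Sod2 at 1.56. Of 21 hypoxia and glycolysis genes 6 were shared risers of moderate size, led by the lactate exporter Slc16a3 (1.14 ± 0.16), the glycolytic kinase Pgk1 (0.95 ± 0.10), the glucose transporter Slc2a1 (0.80 ± 0.16) and the hypoxia factor subunit Hif1a (0.77 ± 0.11). The 6 became 3 without normal Lewis replicate 2 or 3, and Slc2a1 left the shared set in 16 of 24 such fits. Other probe sets of Pgk1 had 0.06 and 0.99 log2.

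Myc (1.73 ± 0.20 log2), a growth factor response gene, was the 1 shared gene of 20 immediate early genes, while Fos (-0.04 ± 0.08) and Egr1 (-0.07 ± 0.07) did not pass. Bcl2a1 (2.42 ± 0.30), an inhibitor of cell death in leukocytes, was the 1 shared gene of 19 in its list. No gene was shared of 18 heat shock, 27 proliferation, 23 respiratory chain, 19 fatty acid oxidation and 15 clock genes (0 in each), and 1, 3, 5, 1 and 2 of them were called in the average. Over all genes 3.4% were shared and 16.3% called in the average, so a count of 0 shared genes is near the background for lists of this length. Mki67, a marker of cycling cells, had -0.12 ± 0.30 log2. Of 15 cholesterol synthesis genes 1 fell in both graft types, Msmo1 (-0.61 ± 0.11, lost in 12 of 24 fits with an array left out), and 5 were called lower in the average (6.89% over all genes).

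**Figure D4:**
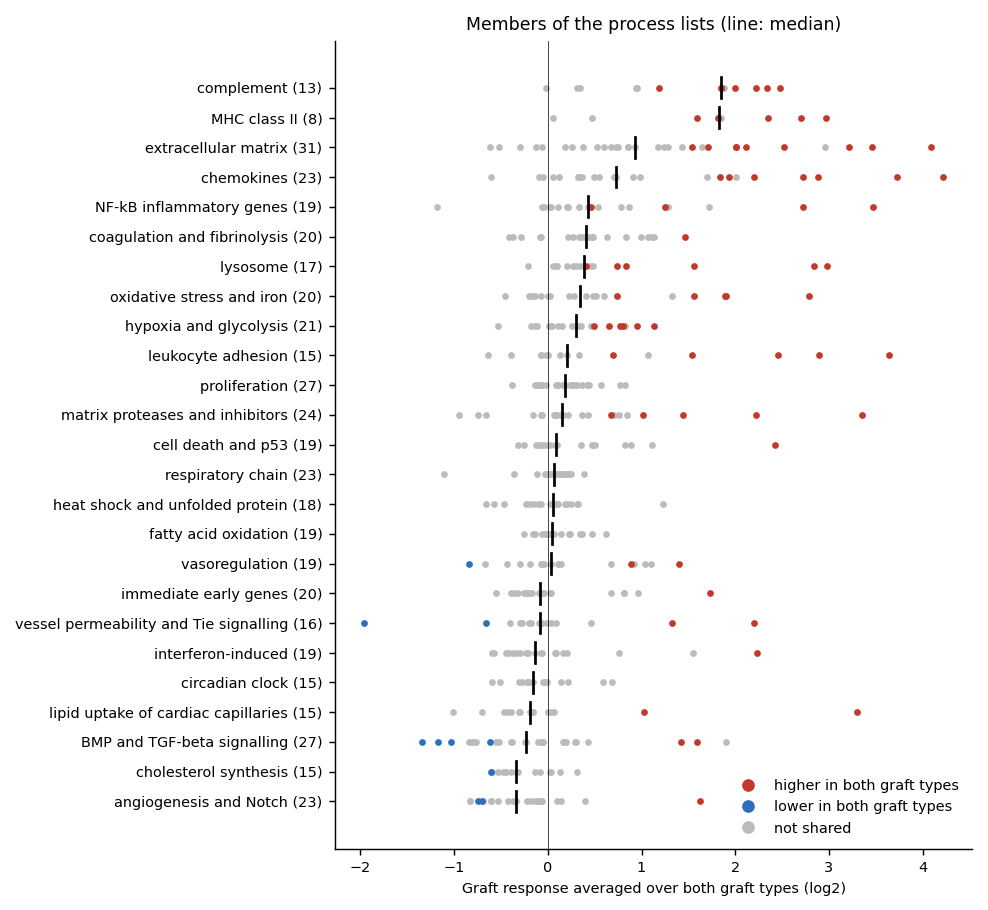
Averaged graft response (horizontal axis, log2) of each measured member of 25 process lists (rows, number of members in brackets), with genes that rose in both graft types in red, those that fell in both in blue, the others in grey and a black line at the list's median. Complement and MHC class II have the highest medians (1.85 and 1.83 log2), and BMP and TGF-beta signalling holds 4 of the shared fallers.

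Some transcripts of heart muscle cells fell in both graft types. Myh6, the alpha myosin heavy chain, ran from 4.55 to 6.67 in allografts (median 5.19), against 6.12, 6.91 and 7.82 in normal DA hearts, and from 5.38 to 6.20 in isografts (median 5.93), against 7.44, 8.30 and 8.64 in normal Lewis hearts. Allografts overlapped normal DA hearts, isografts did not overlap normal Lewis hearts, and the average was -1.92 ± 0.23 log2 (adjusted p = 5.8e-06), with -0.03 on another probe set. Mb, myoglobin, averaged -1.60 ± 0.17 log2 and Tnni3, the cardiac troponin inhibitor, -1.42 ± 0.18, with -0.84 in allografts and -1.99 in isografts. Of 21 cardiomyocyte markers 4 were shared fallers (the fourth was Myl7), 11 were called lower in the average (6.89% over all genes), and 1 stayed shared without normal DA replicate 3. Tnni3 left the shared set in 13 of 24 fits with an array left out. The mean of the list was 5.80 to 6.40 in allografts, against 6.02 to 6.58 in normal DA hearts, and 6.17 to 6.71 in isografts, against 6.99 to 7.70 in normal Lewis hearts. In endothelial preparations these levels are low, and what heart muscle cells contributed to them was not tested.

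Other genes among the 14 that fell furthest had varied roles. Qpct, which modifies peptide ends, averaged -1.76 ± 0.17 log2, the sodium channel Scn7a -1.74 ± 0.22, Rp1l1, known from photoreceptors, -1.46 ± 0.11 and Kctd4 -1.43 ± 0.16. Rp1l1 ran from 4.66 to 5.61 in allografts (median 5.17), against 6.58, 6.60 and 6.68 in normal DA hearts, and from 5.38 to 5.79 in isografts (median 5.53), against 6.66, 6.86 and 7.41 in normal Lewis hearts. Its groups did not overlap and its changes were alike, at -1.50 log2 in allografts and -1.42 in isografts (95% interval of the difference -0.52 to 0.36). LOC102549097 (-1.44 ± 0.21), the lens protein Lim2 (-1.37 ± 0.15), the formin of heart muscle Fhod3 (-1.30 ± 0.16) and the anoctamin Ano4 (-1.39 ± 0.25) completed the set. LOC102549097 left the shared set without normal Lewis replicate 1, 2 or 3, Fhod3 without normal Lewis replicate 1 or 2, and Ano4 in 12 of 24 fits. Of 6 markers of lymphatic endothelium, which also carries CD31, the podoplanin gene Pdpn was a shared riser (2.65 ± 0.27), and 3 were called higher in the average, the others being Lyve1 (1.91 ± 0.32) and Reln (1.03 ± 0.32), with a list median of 0.97 log2. Their mean was 8.43 to 10.94 in allografts, against 8.05 to 8.89 in normal DA hearts, and 8.89 to 10.12 in isografts, against 6.95 to 8.85 in normal Lewis hearts. Allografts overlapped normal DA hearts, isografts lay above normal Lewis hearts, and the part of lymphatic endothelium in other changes was not tested. Single shared members of further lists were the platelet chemokine Pf4 (1.91 ± 0.25) and Wt1 of mesothelium (-0.79 ± 0.12). Of 12 mural, 4 Schwann cell and 5 erythroid markers none (0) were shared, lists too short to be read against the 3.4% shared over all genes.

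The sizes of the changes were compared by the difference of both responses, allografts minus isografts. It passed the test for 1 gene of 14217 (0.00703%; 578 at an unadjusted p under 0.05), which was not shared, and for 0 of the 484 shared genes, whose smallest adjusted p was 0.492. A difference that misses the threshold does not show equal change, so the 95% interval was used as well. It lay within 1 log2 either way for 296 shared genes, 202 of 370 risers and 94 of 114 fallers, and reached beyond 1 log2 for 188. Only 227 of the 370 risers and 31 of the 114 fallers changed by 1 log2 or more on average. For the others this margin exceeds the whole average change, so an interval within it does not show equal size. The median SE of the difference was 0.32 log2 over the risers and 0.21 over the fallers. The allograft change was the larger in 216 risers and the isograft change in 154, and among the fallers in 73 and 41, with median differences of 0.05 and -0.05 log2.

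Of shared genes that changed at least 2-fold, the closest in both types were Maf, a macrophage transcription factor (1.95 log2 in allografts and 1.95 in isografts), Emb, a partner of monocarboxylate transporters (1.53 and 1.53), Pclaf, a factor of DNA replication (1.21 and 1.21), Golm2 (1.26 and 1.27) and Sema3d, a guidance ligand (-1.25 and -1.25). Sema3d ran from 5.82 to 6.93 in allografts (median 6.67), against 7.49, 7.94 and 8.01 in normal DA hearts, and from 6.19 to 7.33 in isografts (median 6.73), against 7.80, 8.06 and 8.13 in normal Lewis hearts. No graft overlapped a normal heart, and the interval of the difference was -0.73 to 0.73. The intervals of Maf (-1.04 to 1.04) and Emb (-0.97 to 0.97) were wider. Other probe sets of Maf had 0.78 and -0.02 log2. Golm2 left the shared set in 5 and Pclaf in 8 of 24 fits with an array left out, and Emb without normal Lewis replicate 2. Genes whose interval of the difference excluded 0 included Sele (-2.19 to -0.38), RT1-Da (1.05 to 3.22), Cd74 (0.65 to 3.05), Tnni3 (0.38 to 1.92), Coro1a (1.05 to 3.14) and Cxcl11, none of which was called over all genes.

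The shared genes were also followed by day. Of the 484, 12 also differed between normal DA and normal Lewis hearts (1.01% of all genes did; 0.485% were higher and 0.528% lower in DA). The medians of the 370 risers were 1.10, 1.07 and 1.36 log2 on days 2, 3 and 4, and those of the 114 fallers -0.76, -0.71 and -0.74. Averaged over graft types, 367, 355 and 370 risers were called on days 2, 3 and 4 (6.15%, 4.05% and 10.3% of all genes were called higher), and 113, 112 and 113 fallers (4.43%, 2.64% and 5.54% called lower). In either direction, 10.6%, 6.7% and 15.8% of all genes were called. The days share their normal hearts and are part of the mean by which the genes were chosen, so these counts describe them only. In each of the 6 graft groups all 484 genes had the sign of their average, and 89 risers and 12 fallers were called in all 6. Selp had 3.72, 3.52 and 3.68 log2 on days 2, 3 and 4, Plvap 2.20, 2.04 and 2.35, and Smad9 -1.31, -1.39 and -1.33.

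Day 4 against day 2, averaged over both graft types, uses no normal heart. It passed for 29 of 14217 genes (0.204%), of which 27 were higher (0.19%) and 2 lower (0.0141%) on day 4, and 9 of the 27 were shared risers (of the 370, 2.43%). Of these, Cfd, C1qa, C1qc and C1qb are on the complement list and Adgre1 is on the macrophage list, with Cfd at 2.16 ± 0.31 log2 (adjusted p = 0.00311), C1qa at 2.14 ± 0.23 (adjusted p = 0.000183), C1qc at 1.70 ± 0.25, Adgre1, the F4/80 antigen of macrophages, at 1.60 ± 0.28, and Clec10a, Rarres1, C1qb, Creg1 and Tfec between 1.17 and 1.39. On days 2 and 4, C1qa changed by 2.27 and 3.87 log2 in allografts and by 0.61 and 3.29 in isografts. C1qa, C1qc, Cfd and Rarres1 stayed called in all 24 fits with an array left out, and the other 5 in 7 to 22. The whole count moved between 7 (without isograft day 2 replicate 3) and 315 (without allograft day 4 replicate 1), and was 11 without both fibroblast-high arrays. Macrophage markers had a median response of 2.34 log2 on day 2, 2.35 on day 3 and 3.03 on day 4, and whether more macrophages or other transcripts per macrophage were present cannot be told apart.

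Leukocytes from allografts had been measured on arrays of their own, which were taken as normalized apart. Their levels were therefore set against the 9 allograft endothelial arrays after a median offset of 0.33 log2 was taken off. A gene counts as higher in one of the cell types at 2-fold or more with no overlap of the arrays. Endothelium here stands for the CD31 preparations, which also held signal of other cells. Of the 370 shared risers 170 (45.9%) were higher in leukocytes, against 8.61% of all genes, 70 (18.9%) were higher in endothelium, against 8.64%, and 130 lay between. Of the 114 shared fallers 4 were higher in leukocytes and 47 in endothelium. The 9 allograft arrays enter both this rule and the choice of the shared genes. A rise in allografts moves a gene towards the endothelial side, and a fall moves it away. These shares therefore describe the genes and test nothing. Gpnmb reached 13.57 to 14.02 in leukocytes (offset removed) against 9.31 to 12.93 in allograft endothelium. Selp, the other way, had 6.17 to 7.56 in leukocytes against 9.98 to 11.31 in allograft endothelium, and Serpina3n 4.83 to 5.37 against 7.15 to 9.68. The allograft change exceeded the isograft change in 125 of the 170 leukocyte-high risers (73.5%) and in 27 of the 70 endothelium-high ones (38.6%), counts on which no test was run.

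**Figure D5:**
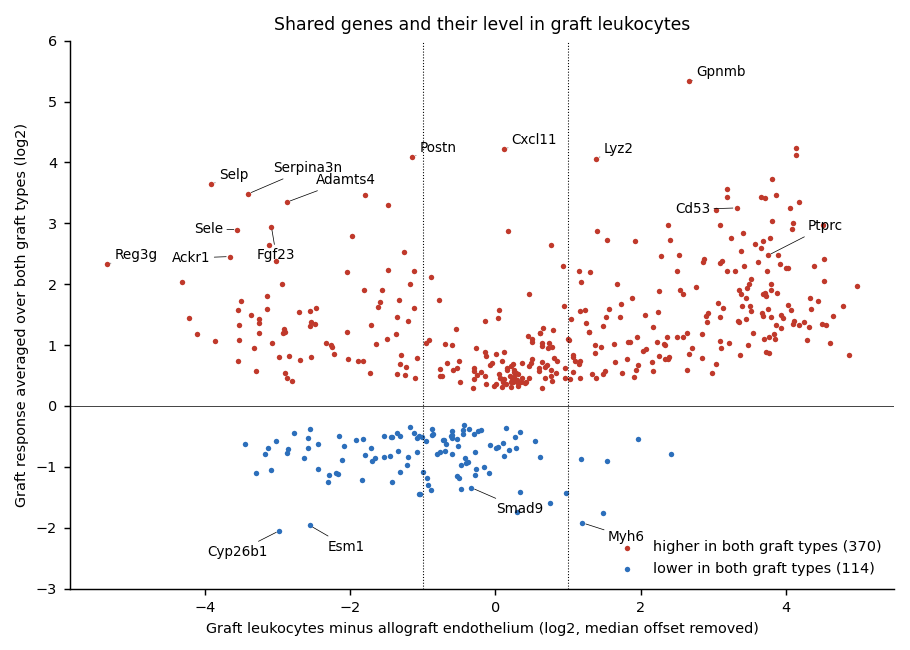
Averaged graft response (vertical axis, log2) of the 484 shared genes against the level in graft leukocytes minus that in allograft endothelium (horizontal axis, log2, median offset removed), with dotted lines at 2-fold either way. Gpnmb, Cd53 and Ptprc lie on the leukocyte side, Selp, Sele, Ackr1, Serpina3n, Fgf23 and Reg3g on the endothelial side, and most genes that fell lie at or left of the middle.

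Pan-leukocyte markers had a mean of 7.91 to 8.79 log2 in allografts, against 6.62 to 6.77 in normal DA hearts, and of 7.11 to 8.09 in isografts, against 6.69 to 7.01 in normal Lewis hearts. Grafts and normal hearts do not overlap in it, so a fit that holds this mean as a covariate has little left to compare, and its median SE over the risers was 0.32 log2 where it had been 0.16. In that fit 341 of 370 risers and all 114 fallers kept their direction, 20 genes were called in the average, and 3 stayed shared, Mpeg1, Lyz2 and Lmo7. The 70 endothelium-high risers all kept their direction with a median of 0.83 log2 (1.21 without the covariate), and the 170 leukocyte-high ones, of which 145 did, had 0.39 (1.48 without it). Selp had 3.01 log2 there (adjusted p = 0.0537), Serpina3n 3.09 (adjusted p = 0.0537) and Smad9 -1.15 (adjusted p = 0.244). With the mean of the cardiomyocyte markers as covariate all 484 kept their direction and 83 were shared, 79 of them from the 484, among them Selp, Sele, Ackr1, Plvap, Serpina3n, Gpnmb and Lyz2. In that mean isografts (6.17 to 6.71) and normal Lewis hearts (6.99 to 7.70) do not overlap, so within Lewis this fit too has little left to compare. Its median SE over the risers was 0.245 log2.

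A motif search over the promoters, with motifs picked after the results were known, set the shared genes against all tested genes. Of 14217 genes 11700 had a promoter of 300 bases in RefSeq, as had 295 of the 370 risers and 99 of the 114 fallers, and both strands were searched for exact letters. AGGAAGT, the element of PU.1 and other ETS factors, was in 27.1% of 133 leukocyte-high risers, 9.26% of 54 endothelium-high risers and 7.07% of fallers, against 8.35% of all promoters, and in 13.2% of the leukocyte-high genes that were not shared. TCATGTG, the M box, was in 7.52% of leukocyte-high risers, 1.85% of endothelium-high risers and 1.01% of fallers, against 2.22% of all. The element of NF-kB was in 5.26%, 0% and 1.01% of the same groups, against 1.7% of all, and TGANTCA, for AP-1, in 8.27%, 5.56% and 5.05%, against 5.43%. The metal response element TGCGCNC was in 12% of leukocyte-high risers and 22.2% of endothelium-high ones, against 25.1% of all, TTCNNNGAA, for STAT, in 3.76% and 13%, against 6.99%, and GGCGCC, a SMAD element, in 17.2% of fallers, against 19.6%. Of the 108 promoters of risers that lay between, 5.56% held the NF-kB element, 11.1% AGGAAGT, 2.78% the M box and 7.41% TGANTCA. The metal response element was in 25.9% of them, TTCNNNGAA in 5.56% and GGCGCC in 18.5%. These shares were not tested, AGGAAGT and TTCNNNGAA can overlap, and a match of letters is no binding site.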

How the data were processed

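Per the submitters' processing notes, the authors made the deposited log2 signals with RMA in the affy package (no version is given). From the medians and decimals of the values, the 24 endothelial and the 4 leukocyte arrays were taken to have gone through it separately. Array medians were 6.51 to 6.59 in the former and 6.83 to 6.88 in the latter. Of 31099 probe sets, 57 controls, 436 matching several genes and 9780 with no gene name here were left out, and 1 probe set per gene, that with the highest mean, was kept (14217 genes). Every data column belonged to a sample (0 left over). limma 3.58.1 (R 4.3.3) was fitted to the endothelial arrays with 8 group means (16 residual degrees of freedom, prior 4.06), with Benjamini-Hochberg adjustment over all genes. On simulated data of 14217 genes, shared changes of 1 and 2 log2 were found in 86% and 97% of the altered genes (100 of each size), with 0 false calls, and changes of the average in 95% and 100%, with 16 false calls. The simulated noise was independent between genes, without shifts of cell content common to an array. These rates therefore need not hold for the real arrays. Named were the 16 highest and 14 lowest shared genes, up to 3 per list, the 5 closest in size, and the 3 highest in time. Other named genes were chosen after their values were seen. Genes, lists and motifs were chosen with earlier results of these data known. Members of 25 process and 15 cell type lists were counted, with no set test. Same-numbered arrays were checked for pairing and are treated as unpaired.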

Additional observations from a re-analysis of the deposited data

Results flagged for a closer look

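Sectm1b, a secreted and transmembrane protein gene, was the 1 gene whose responses in both graft types differed past the threshold. It ran from 6.67 to 10.56 log2 in allografts (median 8.33), against 6.36, 6.42 and 6.43 in normal DA hearts, and from 6.33 to 6.74 in isografts (median 6.63), against 6.46, 6.56 and 6.64 in normal Lewis hearts. The allograft response minus the isograft response was 1.948 log2 (SE 0.30, limma adjusted p = 0.0348), with all 9 allografts above their normal hearts. It was lost in 19 of 24 fits with an array left out. In allografts Sectm1b changed by 0.64 log2 on day 2 and 3.33 on day 4, and in isografts by -0.04 and -0.03. The change of day 4 minus day 2 was thus larger in allografts than in isografts by 2.678 log2 (SE 0.37, adjusted p = 0.00662).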

How the results depend on the processing

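Counts of called genes in the average, in allografts, in isografts, for their difference, for day 4 minus day 2 and for shared genes were 2320, 1338, 647, 1, 29 and 484. With array weights, whose estimation stopped before it converged, they were 3794, 3062, 1391, 14, 988 and 1021. With the pan-leukocyte mean as covariate they were 20, 3, 62, 0, 2 and 3, and with the cardiomyocyte mean 725, 1048, 92, 0, 23 and 83. The difference had 0 calls without days in the model and 0 without genes below the median level (408 shared). Without both fibroblast-high allograft arrays, a choice made after seeing the data, day 4 minus day 2 had 11. Leaving out 1 array in turn gave 1635 to 2732 in the average, 677 to 1812 in allografts, 339 to 851 in isografts, 0 to 1 for the difference, 7 to 315 for day 4 minus day 2 and 286 to 622 shared. Of named genes only Bcl2a1 reversed, with -0.14 log2 under the pan-leukocyte covariate. In that fit 87 further results of named genes lost their call and 13 kept it. Under the cardiomyocyte covariate 11 lost it and 90 kept it. A trended, robust prior (488 shared), the mean of a gene's probe sets (478) and subtraction of array medians (467) left all 6 counts within 1.5 times. The cause of these shifts was not tested. The number of arrays and dim signals limit what can be seen. Replicate numbers were not taken as a pairing, since the labels give no shared source and 84 same-numbered pairs correlated with r of -0.35 to 0.58. Their median of 0.10 was above that of other pairs (-0.04), and 16 of 24 arrays correlated best with their own number, a hint from the data, not the design. With the number as a block 566 genes were shared.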
